A study of Mus musculus with 6 samples.

Results

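The genes described here form the p53 and Arf axis, and they were chosen because nucleophosmin, the product of Npm1, binds both Arf and Mdm2. They number 9 (Trp53, Mdm2, Mdm4, Cdkn2a, Cdkn1a, Bbc3, Ccng1, Sesn2 and Trp73) of the 55536 genes of GENCODE mouse release 21, and all 9 had a broad H3K79me2 peak in the window examined, as did 18781 genes in at least 1 library. The window of a gene was its annotated body plus the 3 kb upstream of its start, and all positions are on mm10 (GRCm38), counted from 1. H3K79me2, dimethylated lysine 79 of histone H3, was mapped by ChIP-seq with antibody ab3594. The cells were N2a, a long-established line from a mouse neuroblastoma. They were transiently transfected with the plasmid pLKO.1-shCTR (CTR, the control hairpin) or with a plasmid expressing a single short hairpin RNA against Npm1 (NPM1 KD), were selected in puromycin and were collected on day 3. Both groups thus shared the line, the vector backbone, the selection and the time, with 2 libraries each. The knockdown rests on 1 hairpin in 1 line, and the single pooled input of each group had no peak list and entered no comparison.

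p53, the protein of Trp53, is a transcription factor that is held at a low level by Mdm2, which marks it for degradation. Arf, made from an alternative first exon of Cdkn2a, binds Mdm2 and so releases p53, which then switches on genes for cell cycle arrest, repair and cell death. H3K79me2 is written by DOT1L and is found over the transcribed part of active genes, mostly toward the start of the gene, so its peaks describe chromatin and measure neither RNA nor protein.

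Peak calls give 3 kinds of value for each gene. The covered share is the percentage of the window under broad peaks. The fold is the pileup at the summit of the strongest narrow peak of the window over the background of the same library. The summit pileup, the number of fragments over that point, was recovered from the deposited fold and p and gives the counting error of the fold. The libraries held 34845 to 48764 broad and 73801 to 88348 narrow peaks, and their background pileup, a relative measure of depth, ranged from 7.65 in CTR 2 to 11.9 in CTR 1, with 8.99 in NPM1 KD 1 and 11.8 in NPM1 KD 2. Broad peaks covered 223 to 236 Mb in CTR and 244 to 253 Mb in NPM1 KD. The labelled cell type was matched by its markers: the neuronal genes Tubb3, Stmn2 and Elavl4 had broad peaks in all 4 libraries, whereas 9 of 10 markers of other cell types had none and Pecam1 had at most 246 bp. The targeted gene, Npm1, was covered over 89.1% and 88.4% of its window in CTR and 88.6% and 89.1% in NPM1 KD. Its fold was 36.9 and 34.1 in CTR and 35.8 and 24.5 in NPM1 KD. With each library centred on its median, the fold was lower in both NPM1 KD libraries (log2 -0.20, SE 0.152, limma adjusted p = 0.684). These values do not check the knockdown, which acts on the RNA. Chromatin came from bulk cells, so fewer cells with the mark and less of it per cell cannot be told apart.

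Every member but Trp73 carried the mark over its own body in all 4 libraries, and the genes differed far more from each other than CTR from NPM1 KD. In mean covered share over the 4 libraries the order was Sesn2 (97.7%), Cdkn2a (91.4%), Mdm2 (91.0%), Trp53 (76.3%), Bbc3 (56.0%), Mdm4 (53.3%), Cdkn1a (46.9%), Ccng1 (23.2%) and Trp73 (1.04%). The values of Cdkn2a and Mdm2 overlapped between libraries, as did those of Bbc3 with Mdm4 and of Mdm4 with Cdkn1a, and the other neighbours in this order did not. In fold, Sesn2 (mean 37.3), Mdm2 (32.4) and Mdm4 (29.1) stood highest and Ccng1 (5.26) lowest. Among the 11863 protein-coding windows with a broad peak, Sesn2 lay at the 95.9th percentile of covered share and Mdm2 at the 90.9th, against the 27.3rd for Ccng1. The window of Cdkn2a combined a wide domain with a low summit, at the 91.1st percentile of covered share and the 41.2nd of fold. Mdm4 showed the opposite, at the 55.7th and the 87.6th.

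**Figure D1:**
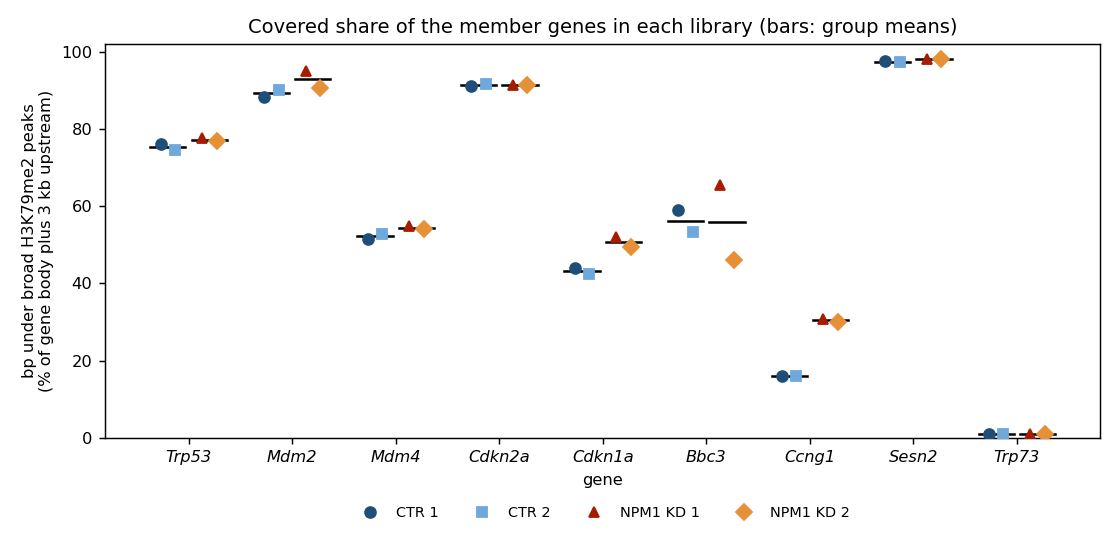
Percentage of the window (gene body plus 3 kb upstream) under broad H3K79me2 peaks for the 9 genes, with 1 symbol per library and a bar at each group mean. Sesn2, Cdkn2a and Mdm2 lie above 88% in every library, Ccng1 lies at 16% in both CTR libraries and at 30.9% and 30.1% in NPM1 KD, and the 2 NPM1 KD values of Bbc3 are far apart.

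The question of the design was whether the knockdown changed the mark at these genes. Across all windows with a broad peak, limma with Benjamini-Hochberg adjustment called 0 of 18781 for covered length, a share of 0.0%, with 2531 windows at an unadjusted p under 0.05, of which 2407 were higher in NPM1 KD. None of the 9 genes was called, and 2 of them (Cdkn1a and Ccng1) had an unadjusted limma p under 0.05. Covered bp was higher in each NPM1 KD library than in either CTR library at 6 of the 9 (Trp53, Mdm2, Mdm4, Cdkn1a, Ccng1 and Sesn2), beside 38.7% of all windows. The reverse order held at 0 of the 9, beside 3.14% of all windows. Of the 11863 protein-coding windows, 5539 were higher in both NPM1 KD libraries and 343 lower, a larger share of higher ones than over all windows. The median difference of the 9 genes was 1.91 percentage points, next to 1.85 over all windows and 2.37 over protein-coding ones. In the narrow lists the count of 6 fell to 2, Mdm2 and Ccng1. For fold, limma called 27 of 17231 windows higher (0.157%) and 12 lower (0.0696%), and none of these was a member, with Ccng1 and Sesn2 among the 1321 windows at an unadjusted limma p under 0.05. After centring each library on its median, both NPM1 KD folds exceeded both CTR folds at 2 members (Cdkn1a and Ccng1), beside 17.5% of all windows, and fell below them at 2 (Mdm4 and Sesn2), beside 24.8%. An exact permutation test of 2 libraries against 2 cannot give a two-sided p under 0.333, so single values were read from the limma fits. These fits were tried on simulated data with the means and spreads of the libraries. Of 200 windows shifted by log2 0.5, the fold fit called 0 and the covered-length fit 43. Of 200 shifted by log2 1, they called 0 and 80. A missing call at a member therefore does not show that its mark was unchanged. The labels do not say whether libraries came from separate cultures, but according to the methods every replicate had its own passage and transfection.

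Trp53 (chr11:69580359-69591873, plus strand) carried a main domain that began just upstream of its start and ran over most of the body. Its broad peak ran from -259 to 8570 bp of the gene start in CTR 1 and from -83 to 8873 in CTR 2. CTR 1 held a further broad peak of 311 bp, from 9153 to 9463 bp. The NPM1 KD 1 peak ran from -108 to 9266 bp and that of NPM1 KD 2 from -129 to 9098 bp. A second broad peak entered the window from the side of Wrap53, a gene for a telomerase and Cajal body protein that starts at -104 bp on the other strand. That peak stopped between -1137 and -1077 bp, so a stretch between the domains, inside Wrap53, was free of broad peaks in every library. ChIP-seq carries no strand, so where genes overlap their signal cannot be told apart. The window held 11047 and 10821 bp under broad peaks in CTR and 11271 and 11152 bp in NPM1 KD. The groups did not overlap, but the difference of 278 bp was small (log2 0.033, SE 0.015, limma adjusted p = 0.496), and in the narrow lists it turned to -0.72 percentage points. The fold was 23.2 and 26.6 in CTR and 22.9 and 21.7 in NPM1 KD. Both NPM1 KD values were the lower ones as deposited, and after centring the groups overlapped (log2 -0.098, SE 0.144, limma adjusted p = 0.837). The mean fold of the best broad peak, as deposited, was also lower in both NPM1 KD libraries, at 9.66 and 9.43 against 10.6 and 11.5 in CTR (log2 -0.16, SE 0.078, limma adjusted p = 0.503).

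Mdm2, the ubiquitin ligase for p53 (chr10:117688875-117710758, minus strand), was covered over nearly its whole length. Broad peaks held 21938 and 22451 bp in CTR and 23665 and 22545 bp in NPM1 KD, or 88.2%, 90.2%, 95.1% and 90.6% of the window. In CTR 1 the domain was split, with a gap between 16957 and 17495 bp from the start, and in the other libraries it was a single peak. The domain reached -1781 bp in NPM1 KD 1 and between -1019 and -976 bp in the other 3 libraries. NPM1 KD 1 thus stood apart, and NPM1 KD 2 exceeded CTR 2 by little (difference 910 bp, log2 0.055, SE 0.034, limma adjusted p = 0.603). The strongest narrow peak of Mdm2 had a fold of 34.9 and 31.8 in CTR and 34.8 and 28.0 in NPM1 KD. Its summit lay 749 to 772 bp into the gene in 3 libraries and at 3795 bp in NPM1 KD 2, and the groups overlapped in fold (log2 -0.035, SE 0.120, limma adjusted p = 0.939).

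Mdm4, a relative of Mdm2 that blocks the activity of p53 (chr1:132959484-133030561, minus strand), had no mark over its annotated start. Its main domain began 3464 bp from that start in NPM1 KD 1 and 4917 to 4973 bp from it in the other 3 libraries. Separate broad peaks lay before the domain in CTR 1 (280 bp long, from 3847 bp) and NPM1 KD 2 (166 bp long, from 3813 bp). The 4 tested coding transcripts of Mdm4 start at 5145 to 5223 bp, and the first 2 kb downstream of each was covered in full in all 4 libraries. Coverage ended 45021 to 45641 bp from the start, apart from fragments of 177 and 354 bp beyond it in CTR 1 and NPM1 KD 1, so the distal part of the gene was bare. The covered length was 38243 and 39136 bp in CTR and 40582 and 40094 bp in NPM1 KD, a difference of 2.23 percentage points without overlap (log2 0.059, SE 0.018, limma adjusted p = 0.387). When weak peaks (-log10 q below 5) were left out, the difference turned to -2.72 points. The fold of Mdm4 was 30.3 and 32.0 in CTR and 27.8 and 26.1 in NPM1 KD, lower in both NPM1 KD libraries (log2 -0.15, SE 0.128, limma adjusted p = 0.707). The mean fold of its best broad peak did not keep that order, at 7.57, 8.05, 7.48 and 7.64.

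The domains of Mdm2 and Mdm4 hold close matches to the p53 response element, a 20-base sequence of 2 decamers to which p53 binds. Among the targets, the domain of Ccng1 also does. Windows were searched on both strands for the 2 decamers without a spacer, with the core C and G of each fixed and at most 2 other bases off the consensus. A match describes letters, not binding. The matches of Mdm2 and Mdm4 lie inside a broad and a narrow peak in all 4 libraries and are shown with the central 4 bases of each decamer in capitals. The last 2 of Mdm4 overlap by 1 decamer.
Mdm2, chr10:117699921-117699940, minus strand: ggaCTTGtccagcCAAGttt
Mdm4, chr1:133019441-133019460, minus strand: gaaCATGtccaaaCCTGtct
Mdm4, chr1:133020295-133020314, minus strand: gggCTTGtctggcCTTGtct
Mdm4, chr1:133020305-133020324, minus strand: tgaCTTGtctgggCTTGtct
Each of these sequences differs from the consensus at 1 base. They lie 10818 bp into Mdm2 and 10237 to 11101 bp into Mdm4, within the domains described above. Within 3 kb on either side of the start, neither gene held a match. The windows searched measured 24884 bp for Mdm2 and 74078 bp for Mdm4. The share of other windows of such length with a match was not computed, so these matches are not shown to be particular to the 2 genes. No match was found in the windows of Trp53, Cdkn2a, Bbc3 and Sesn2.

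**Figure D2:**
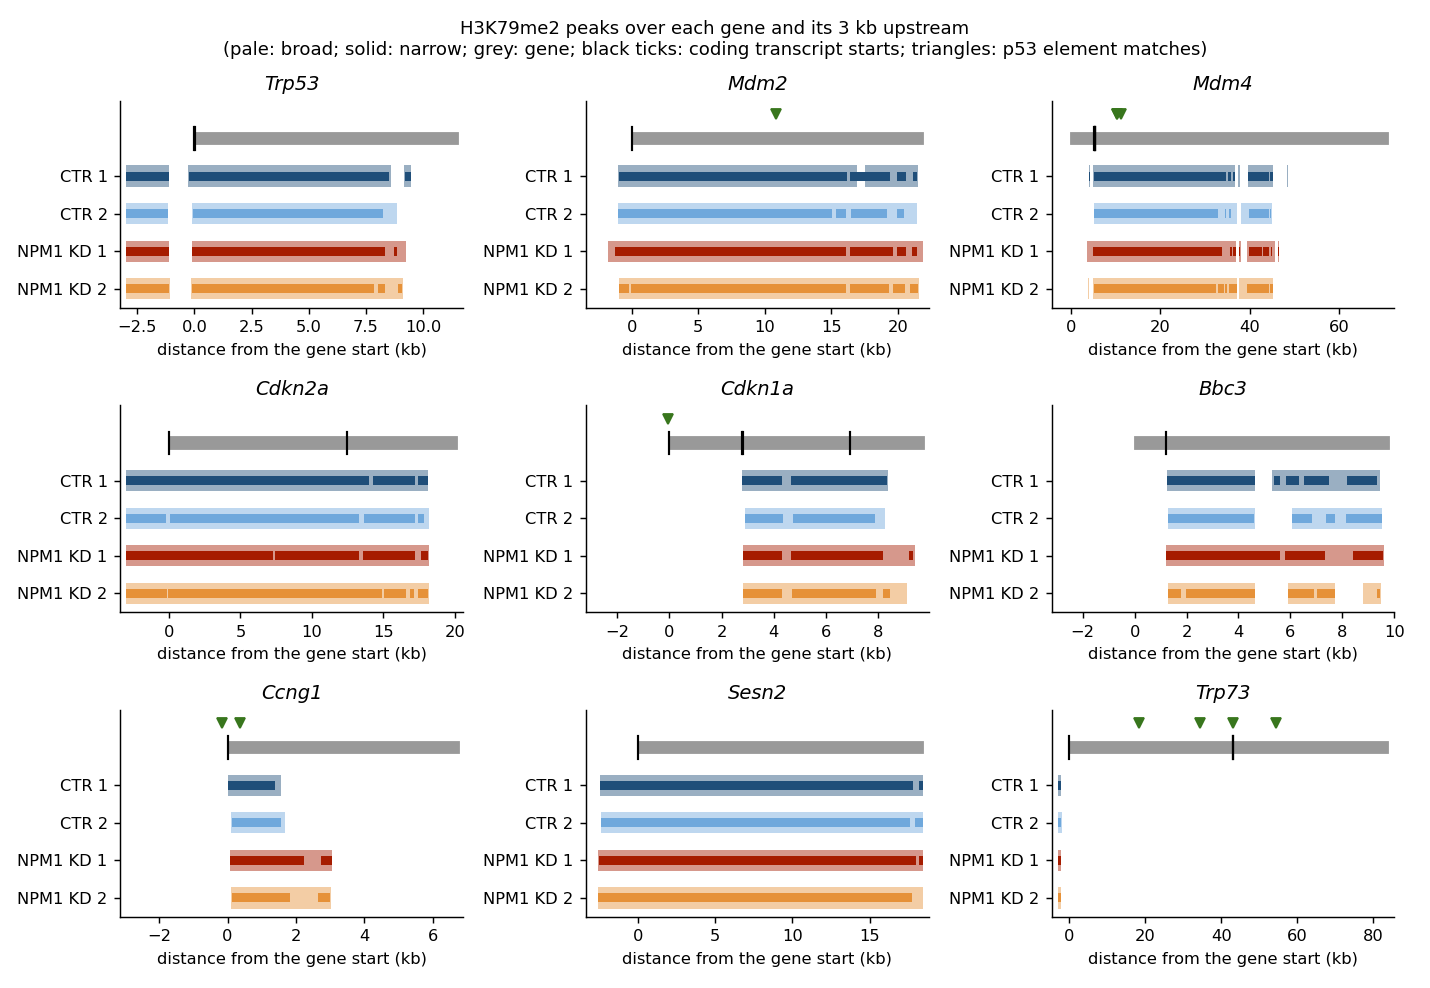
Broad (pale) and narrow (solid) H3K79me2 peaks of the 4 libraries over each gene and the 3 kb before it, by distance from the gene start in kb, with the gene in grey, starts of tested coding transcripts as black ticks and p53 element matches as green triangles. Peaks of Mdm4, Cdkn1a and Bbc3 begin at the ticks inside the gene and not at the annotated start, the Ccng1 peak is longer in both NPM1 KD libraries, and Trp73 holds peaks only at the far upstream edge.

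Cdkn2a encodes Arf and the cyclin-dependent kinase inhibitor p16Ink4a from separate first exons (chr4:89274471-89294653, minus strand). A single broad peak covered the window of Cdkn2a in every library, over 21151 and 21225 bp in CTR and 21190 and 21159 bp in NPM1 KD. It took in both starts. A coding transcript starts at the gene start, where the Arf exon lies, and another 12461 bp further on, and the first 2 kb of each was covered in full in all 4 libraries. Upstream the peak reached -13812 and -10250 bp in CTR and -14026 and -12667 bp in NPM1 KD. It therefore overlapped Cdkn2b, the neighbouring gene for the inhibitor p15Ink4b, in 3 libraries and stopped short of it in CTR 2, the library with the lowest background pileup, whose part in this was not tested. The covered length of Cdkn2a did not separate the groups, which differed by -0.058 percentage points (limma adjusted p = 1.0). The fold was 13.0 and 12.3 in CTR and 13.3 and 10.0 in NPM1 KD, where NPM1 KD 2 alone was low. The groups overlapped (log2 -0.068, SE 0.129, limma adjusted p = 0.883). The summits behind these folds differed in place. Those of CTR 1, CTR 2 and NPM1 KD 1 lay upstream of the start (-861, -936 and -978 bp). That of NPM1 KD 2 lay inside the gene (1558 bp), and its upstream peak had a fold of 9.55. CTR 2 also had a peak with its summit inside the gene (1568 bp), with a fold of 10.9. Over the gene body alone the log2 difference was 0.0125 (limma adjusted p = 0.983). Cdkn2b had a fold of only 3.65, 3.47, 3.30 and 3.29, and its covered share of 56.9%, 60.8%, 52.4% and 88.1% put the 2 NPM1 KD libraries on either side of CTR.

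Cdkn1a, the p21 inhibitor of cyclin-dependent kinases through which p53 halts the cell cycle, carried its mark from the main start and not from the upstream one (chr17:29090976-29100727, plus strand). The peak of Cdkn1a began at 2791 and 2885 bp in CTR and at 2815 and 2821 bp in NPM1 KD, where the main coding transcript starts (2793 bp). The 2 kb after the start of the upstream coding transcript held 0 bp in every library. The other end lay at 8382 and 8284 bp in CTR and at 9430 and 9127 bp in NPM1 KD. Covered length was 5592 and 5400 bp in CTR and 6616 and 6307 bp in NPM1 KD, with means of 43.1% ± 1.06 and 50.7% ± 1.71 of the window (SD, n = 2). The groups were apart by 7.57 percentage points, which did not pass the adjusted threshold (log2 0.20, SE 0.033, limma adjusted p = 0.283). Over the 1878 windows in the same decile of covered length, the log2 difference had a median of 0.047 and a 95th percentile of 0.42, so the value of Cdkn1a was within their usual range. In the narrow lists the groups overlapped, with 5203 and 4637 bp in CTR and 5192 and 5005 bp in NPM1 KD. The fold of Cdkn1a was 9.93 and 7.98 in CTR and 11.8 and 9.16 in NPM1 KD, and the groups overlapped as deposited but not after centring (log2 0.28, SE 0.142, limma adjusted p = 0.634). These folds came from different peaks, with summits at 3729 and 3671 bp in CTR 1 and NPM1 KD 1, and 5986 and 6007 bp in CTR 2 and NPM1 KD 2. As deposited, the first peak had 9.93 and 7.29 in CTR and 11.8 and 7.2 in NPM1 KD, which overlapped. The second had 8.69 and 7.98 in CTR and 10.2 and 9.16 in NPM1 KD, which did not.

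Ccng1, the cyclin G1 gene that p53 induces, showed the widest separation of the 9 in covered share (chr11:40748552-40755311, minus strand). Its single broad peak measured 1560 and 1561 bp in CTR and 3012 and 2942 bp in NPM1 KD. The peak began within 113 bp of the start in all 4 libraries, and its far end lay at 1574 and 1673 bp in CTR and at 3069 and 3037 bp in NPM1 KD. The mean covered share (± SD, n = 2) was thus 16% ± 0.00724 for CTR and 30.5% ± 0.507 for NPM1 KD, a difference of 14.5 percentage points. This was not called over all windows (log2 0.64, SE 0.012, limma adjusted p = 0.157), and its small error comes with CTR libraries that were 1 bp apart. The log2 difference exceeded the 95th percentile of the 1878 windows in the same decile of covered length, which was 0.59, with a median of 0.046. In the narrow lists Ccng1 held 1373 and 1440 bp in CTR and 2508 and 2088 bp in NPM1 KD. The added length included a second narrow peak, found only in NPM1 KD 1 and NPM1 KD 2 at 2726 to 3060 bp and 2641 to 3010 bp, with a fold of 2.3 and 2.5. The background pileup was 11.9 and 7.65 in CTR and 8.99 and 11.8 in NPM1 KD, and its part in this difference was not tested.

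The summit at Ccng1 was low, and its NPM1 KD values were again the higher ones. Its fold was 4.89 and 4.16 in CTR and 6.21 and 5.79 in NPM1 KD, from summit pileups of 62, 35, 61 and 73 fragments. The exact 95% Poisson intervals of the fold were 3.77 to 6.25 and 2.93 to 5.74 in CTR, and 4.77 to 7.95 and 4.56 to 7.26 in NPM1 KD, so they overlapped between groups. The limma difference was 0.47 on the log2 scale (SE 0.128, limma adjusted p = 0.622). Windows in the same decile of fold had a median of 0.11 and a 95th percentile of 0.50, which takes in Ccng1. The mean fold over the broad peak, at 3.20, 2.85, 3.31 and 2.96, did not separate the groups.

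The targets Cdkn1a and Ccng1 have p53 element matches near the annotated gene start. They are shown because some lie inside and some outside the mark, again with the central 4 bases of each decamer in capitals.
Cdkn1a, chr17:29090928-29090947, plus strand: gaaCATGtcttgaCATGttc
Ccng1, chr11:40755462-40755481, minus strand: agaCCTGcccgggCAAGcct
Ccng1, chr11:40754936-40754955, minus strand: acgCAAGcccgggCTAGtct
Each differs from the consensus at 1 base. The Cdkn1a match lies at -48 bp of the annotated gene start and outside every peak of the 4 libraries. Of the matches at Ccng1, that at -170 bp lay outside every peak, and that at 356 bp lay inside a broad and a narrow peak in all 4. Of 21938 protein-coding genes, 5.91% held a match with at most 2 mismatches within 3 kb on either side of the start and 0.957% held 1 with at most 1 mismatch. Among the 9 genes, Cdkn1a and Ccng1 did.

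Bbc3, the gene for the cell death factor Puma, was the least repeatable of the 9 (chr7:16308393-16318205, plus strand). Its first broad peak began at 1231, 1288, 1203 and 1271 bp, close to the start of its tested coding transcript at 1223 bp. Broad peaks held 7568 and 6834 bp in CTR and 8409 and 5892 bp in NPM1 KD. The NPM1 KD libraries took the highest and the lowest place, with 1 unbroken peak in NPM1 KD 1 and 3 peaks in NPM1 KD 2, and the means were 56.2% ± 4.05 and 55.8% ± 13.9 (SD, n = 2, limma adjusted p = 1.0). The fold of Bbc3 was 9.55 and 9.25 in CTR and 9.81 and 5.79 in NPM1 KD. At the summit only NPM1 KD 2 was low, and its exact 95% Poisson interval of 4.56 to 7.26 lay below those of the other 3 libraries, which began at 7.35 or more (log2 -0.26, SE 0.197, limma adjusted p = 0.685). These intervals are of the fold as deposited, whose median over gene windows was also lowest in NPM1 KD 2. The mean fold of its best broad peak was lower in both NPM1 KD libraries, at 3.75 and 3.69 against 4.62 and 4.46 in CTR (log2 -0.24, SE 0.064, limma adjusted p = 0.38).

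Sesn2, the sestrin 2 gene of the stress response that p53 controls, had the most complete domain and the highest summit (chr4:132492032-132510501, minus strand). One peak per library ran from -2411 to -2595 bp to beyond the end of the gene, and the 18470 bp of the body were covered in full in all 4 libraries. Covered length was 20939 and 20881 bp in CTR and 21065 and 21059 bp in NPM1 KD, a gap of 0.708 percentage points that lay wholly upstream of the start (limma adjusted p = 0.635). In height the order of the groups was the opposite. The fold of Sesn2 was 44.2 and 42.1 in CTR and 33.3 and 29.7 in NPM1 KD, from summit pileups of 568, 363, 332 and 378 fragments. The exact 95% Poisson intervals were 40.6 to 47.9 and 37.9 to 46.6 in CTR, and 29.9 to 37.1 and 26.7 to 32.8 in NPM1 KD. They did not overlap between the groups. The difference of -0.40 on the log2 scale was not called (SE 0.115, limma adjusted p = 0.622). The mean fold over the broad peak gave the same order, with 17.0 and 16.5 in CTR and 13.5 and 12.6 in NPM1 KD (log2 -0.31, SE 0.064, limma adjusted p = 0.269). Windows with strong peaks shared this direction. In the top decile of fold, which holds Sesn2, the median log2 difference was -0.21 and the 5th percentile -0.43, and the value of Sesn2 lay between them.

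**Figure D3:**
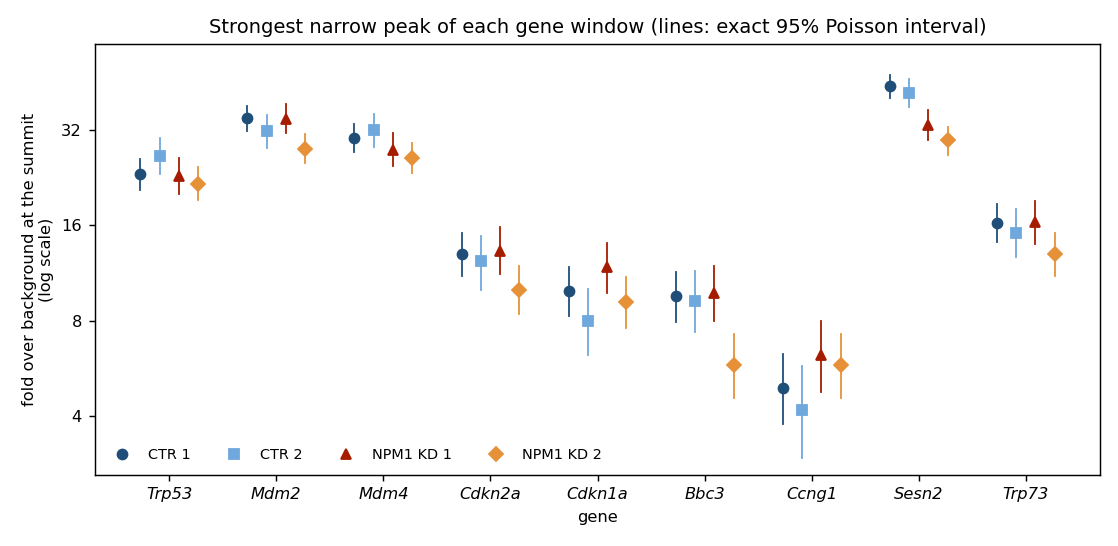
Fold over background at the summit of the strongest narrow peak of each gene window, on a log axis, with 1 symbol per library and lines for the exact 95% Poisson interval of the summit pileup (counting error only). Sesn2 is at 44.2 and 42.1 in CTR and 33.3 and 29.7 in NPM1 KD with intervals apart, and Ccng1 is at 4.89 and 4.16 against 6.21 and 5.79 with intervals that overlap.

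Trp73, the gene of the p53 relative p73, had no broad peak over its body of 83956 bp in any library (chr4:154056253-154140208, minus strand). The 2 kb after each of its 3 tested coding starts, at 0, 43035 and 43041 bp, held 0 bp in all 4 libraries. What the window of Trp73 held was the edge of a peak over the neighbour Wrap73, which starts at -2164 bp on the opposite strand. That edge gave 911 and 920 bp in CTR and 915 and 863 bp in NPM1 KD, which overlapped. The fold of 16.3, 15.1, 16.4 and 13.0 therefore belongs to the side of Wrap73, and its groups overlapped too (limma adjusted p = 0.917). The 4 p53 element matches in the body of Trp73, 18452 to 54332 bp from the start, lay outside all peaks.

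Other genes of the pathway were taken from 5 lists, and 0 genes of any list were called by limma in either measure. Counts of higher covered length are set beside all windows. Among protein-coding windows the share was larger, with 5539 of 11863 higher in both NPM1 KD libraries. Of 16 p53 targets for arrest and repair, 14 had a broad peak in all 4 libraries, and 8 were higher in both NPM1 KD libraries and 0 lower, beside 38.7% and 3.14% of all windows. Plk2 and Trp53inp1 had no broad peak, whereas Zmat3 (mean 87.0%) and Gadd45a (the whole window in every library) were covered most. Rps27l, a ribosomal-like target of p53, resembled Ccng1, with 33.6% and 33.5% in CTR and 47.4% and 45.8% in NPM1 KD (limma adjusted p = 0.177). Ddit4, a stress inhibitor of growth signalling, had 77.3% and 74.1% against complete coverage and 84.0% (limma adjusted p = 0.48). Of 12 targets for cell death, 5 had no broad peak, among them the death receptor genes Fas and Eda2r, and 3 of the other 7 were higher in both NPM1 KD libraries, a share close to the 38.7% of all windows. Bax, the pore-forming death effector, was covered over 63.4% and 65.0% in CTR and 66.6% and 67.5% in NPM1 KD (limma adjusted p = 0.387). Pidd1 had the largest mean covered share of this list, 72.1%, with groups that overlapped.

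The genes that control p53 formed the list with the most members above CTR. All 16 p53 regulators had broad peaks in all 4 libraries, 11 were higher in both NPM1 KD libraries and 0 lower, and their median difference was 4.39 percentage points, with 7 at an unadjusted limma p under 0.05. Over all 18781 windows, 38.7% were higher, 3.14% were lower and 2531 had an unadjusted limma p under 0.05. Trp53bp1, a DNA damage response adaptor, had 54.0% and 47.6% in CTR and 63.4% and 61% in NPM1 KD (limma adjusted p = 0.378). Kat5, the acetyltransferase Tip60, had 58.1% and 46.4% against 81.1% and 58.3%, where NPM1 KD 2 barely passed CTR 1 (limma adjusted p = 0.617). Trip12 and Daxx were covered most in this list (means 81.9% and 84.2%), and the kinase genes Atm and Atr least (7.63% and 6.49%).

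The 11 nucleolar and ribosomal partners of Mdm2, which include Npm1, all had broad peaks in every library, with 4 higher and 2 lower in both NPM1 KD libraries. Over all windows these shares were 38.7% and 3.14%. The lower ones were Ncl, the nucleolin gene, with 76.8% and 81.2% in CTR and 74.0% and 72.3% in NPM1 KD (limma adjusted p = 0.43), and Nop53, with 61.9% and 68.6% against 59.4% and 53.8% (limma adjusted p = 0.499). These partners carried high summits (median fold 28.7), and after centring 8 of the 11 had lower folds in both NPM1 KD libraries and 0 higher ones, beside 24.8% lower and 17.5% higher over all windows. As deposited, 6 were lower and 0 higher. The median log2 difference of these partners was -0.21, and windows with high folds in general had medians of -0.14 and -0.21 in the upper 2 deciles of fold. Rpl23, for a ribosomal protein that binds Mdm2, had folds as deposited of 45.9 and 44.6 in CTR and 41.7 and 31.1 in NPM1 KD (limma adjusted p = 0.631). Pml had the lowest covered share of this list, at 45.5%.

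Among 14 Arf regulators and neighbours of Cdkn2a, 12 had broad peaks in all 4 libraries, with 5 higher in covered length and 0 lower, beside 38.7% and 3.14% of all windows. Bmi1, a Polycomb repressor of Cdkn2a, had 71.2% and 70.3% in CTR and 80.4% and 82.5% in NPM1 KD (limma adjusted p = 0.21). Dmtf1, an activator of Arf, had 67.7% and 62.6% against 74.4% and 73.9% (limma adjusted p = 0.36). Tbx3 and Twist1 had no broad peak, and Tbx2 (98.9%) and Foxo3 (96.7%) were covered most. In fold after centring, 8 of the 12 were lower in both NPM1 KD libraries and 2 higher, beside 24.8% and 17.5% of all windows. As deposited, 7 were lower and 0 higher.

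**Figure D4:**
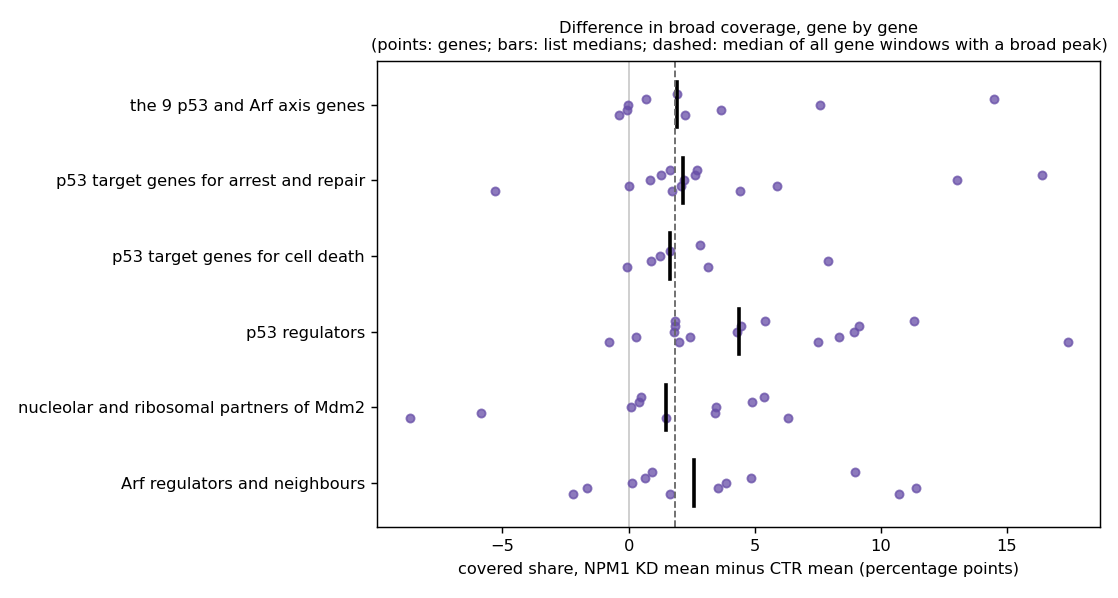
Difference in covered share between the NPM1 KD and CTR means, in percentage points, for each gene with a broad peak in the 9 p53 and Arf axis genes and 5 pathway lists, with a bar at each list median and a dashed line at the median of all gene windows (1.85). The 9 genes have a median of 1.91 with Ccng1 at 14.5 farthest right, and the p53 regulators have the highest list median, 4.39.

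Likeness of pattern was measured as the Euclidean distance between the covered shares in the 4 libraries, over 69 pathway genes. Sesn2 was nearest to Foxo3 (2.17 points), Mdm4 to Btg2 (2.72), Cdkn2a to Rpl23 (2.73), Mdm2 to E2f3 (3.15) and Trp53 to Mtap (5.45). Cdkn1a was nearest to Pml (7.95), Bbc3 to Usp7 (12.2) and Ccng1 to Usp28 (13.3). At those last distances the pairs are alike only in rough level, and Usp28, at 25.1% and 23.0% in CTR and 26.9% and 24.8% in NPM1 KD, had groups that overlapped where those of Ccng1 were apart. Trp73 was nearest to Eda2r (2.08), which had no peak.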

How the data were processed

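The authors aligned paired-end reads to mm10 with Bowtie2 2.3.4.1, removed low mapping qualities and called peaks per library with MACS2 (2.2.6 per the labels, another release in the methods). Whether the inputs served as background was not stated, and only the names of the broad peaks mention filtering. The authors' score column holds the −log10 q multiplied by 10. The deposited fold is a ratio of pileup to background, at the summit in narrow lists and averaged in broad lists, and −log10 p, −log10 q and the offset of the summit came with it. Read counts were not analysed here, and depth was known only through the background pileup recovered from fold and −log10 p.

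Covered bp per window were summed with Python 3.11.15, numpy 2.4.6 and pandas 2.3.3. limma 3.58.1 in R 4.3.3 tested log2(covered bp + 1000) over all windows with a broad peak, and the median-centred log2 fold of the strongest narrow peak over windows with a narrow peak in all 4 libraries, with a mean trend for covered length, Benjamini-Hochberg adjustment and a threshold of 0.05. Fold changes of short windows are understated by the added 1000 bp. Scripts were tested on simulated data. Poisson intervals (scipy 1.17.1) cover counting error only. Coding transcripts with the basic tag gave the tested starts. Figures used matplotlib 3.10.9. The methods tie each replicate to a passage and transfection, so a number may mark a batch. Same-numbered libraries were checked. Their deviations from the group means correlated at 0.195 for covered length and 0.207 for fold.

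Named were the 9 genes, coding genes overlapping their windows, from each list the 2 highest and 2 lowest covered shares and the 2 largest differences without overlap, and the nearest list gene of each member. Genes, lists and tests were chosen with earlier results of these data known. Cdkn2b, and the medians by decile of windows, were added after their values were seen. Alternatives covered the kind of list, q, window, list size, pseudocount, filter, gene type, centring, replicate block and leaving out each library. Some neuronal markers are not reported here.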

Additional observations from a re-analysis of the deposited data

How the results depend on the processing

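Calls for covered length went from 0 to 72 without peaks of a −log10 q below 5, to 76 over the gene body alone and to 2 over all windows without a filter, where most variances were 0, and stayed at 0 without each library. Calls for fold went from 39 to 95 in the broad lists, 24 without centring, 16 over protein-coding genes and 3 on percentiles, and from 91 to 142 without 1 library, where a lone library was assumed to vary like the others. Members above CTR in covered bp fell from 6 to 2 in the narrow lists, and members below ranged from 0 to 2 without 1 library (2 without CTR 1 or without NPM1 KD 1). Covered share changed sign at Trp53 (-0.72 points, narrow lists) and Mdm4 (-2.72, without those weak peaks), and, around differences near 0, at Bbc3 (19.6 without weak peaks, 2.47 without CTR 1, 9.43 without NPM1 KD 2), Cdkn2a (0.101 without CTR 2, 0.00863 without NPM1 KD 2) and Trp73 (0.00115, narrow lists). Fold reversed at Mdm4 (0.00449, broad lists), at Cdkn2a (0.0125, gene body alone), on percentiles at Trp53 (0.261 points), Mdm2 (0.392), Mdm4 (0.116), Cdkn2a (0.468) and Trp73 (0.509), and without 1 library at Trp53 (-0.241 to 0.0319, highest without CTR 2), Mdm2 (-0.0875 to 0.00333), Cdkn2a (-0.169 to 0.0184), Bbc3 (-0.536 to 0.00141) and Trp73 (-0.112 to 0.00264), the last 4 highest without NPM1 KD 2. The cause was not tested. Among the alternatives for single members, 62 values of covered share kept their sign, 8 did not and 2 were 0, while 59 values of fold kept it and 12 did not. Where all 4 libraries were kept, no such fold of a member passed the adjusted threshold. For covered length, calls of members were read only in the main fit and with the replicate block. Whether a member is among the 72, 76 or 2 windows called above is therefore not given. With the replicate block for the pairing by number, covered length gave 0 calls (3164 at p under 0.05) and fold 31, and no call of a member changed.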
